A study of Mus musculus with 24 samples.

Results

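The genes described here are 9 genes of ionocytes and of epithelial ion transport, listed by symbol: Cftr, Foxi1, Ascl3, Atp6v1b1, Scnn1a, Scnn1b, Scnn1g, Slc12a2 and Ano1. All 9 were found among the 35855 genes to which the deposited transcript values could be summed. They were followed through 24 bulk RNA libraries of airway epithelium from the trachea of female mice that were wild type and untreated (naïve), of the C57BL/6 strain by the title of the series. The labels give 3 groups of 8 libraries, BCAM HI, BCAM LO and DIFFERENTIATED EPCS, the former pair being basal cell subsets that differ in the surface protein BCAM. Each group holds 5 libraries of batch 1 (replicates 1 to 5) and 3 of batch 2 (replicates 6 to 8), and each library came from 1000 sorted cells. No label gives the animals' age, says whether animals were pooled, describes the gate for the differentiated cells or explains the batch number. Nothing says that replicates came from separate animals, so p-values measure only the spread between these libraries, which may be technical.

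Fluid on the airway surface is set by the balance between sodium uptake and chloride secretion. Sodium enters epithelial cells from the lumen through ENaC, a channel built from the α, β and γ subunits that Scnn1a, Scnn1b and Scnn1g encode. Chloride is loaded across the basolateral membrane by the sodium-potassium-chloride cotransporter NKCC1 (Slc12a2) and leaves across the apical membrane through CFTR, the channel mutated in cystic fibrosis, or through the calcium-activated channel TMEM16A (Ano1). Ionocytes are rare airway cells rich in CFTR and in the V-ATPase proton pump; the forkhead factor Foxi1 specifies them, the basic helix-loop-helix factor Ascl3 marks them, and Atp6v1b1 encodes a pump subunit typical of such cells.

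Each library held between 1824619 and 4440072 estimated counts, so that a count of 3, the upper limit that a count of 0 allows, corresponded to 0.665 to 1.86 CPM, a library's count scaled by its total after TMM adjustment. Marker genes were checked against the labels. Summed over 10 basal markers, CPM ran from 5810 to 8605 in BCAM HI, from 5438 to 6010 in BCAM LO and from 627 to 2607 in DIFFERENTIATED EPCS. Krt5, the defining basal keratin, had 47143 and 26169 counts in the BCAM groups and 14 in the differentiated cells. A list of 10 secretory markers summed to 305100 to 445600 CPM in differentiated libraries of batch 1 and to 14640 to 95960 CPM in those of batch 2. The sums were 35560 to 47450 CPM in BCAM HI and 42810 to 89020 CPM in BCAM LO. Differentiated replicates 6 and 7, at 22040 and 14640 CPM, lay below every BCAM library. All 14 thyroid follicle genes of a further list were present in the differentiated libraries, at 14150 to 26500 CPM in batch 1 and 50500 to 118800 CPM in batch 2, against 23.3 to 1313 CPM in BCAM HI and 25.7 to 289 CPM in BCAM LO. Sums of 4 parathyroid markers were 189 to 17780 CPM in differentiated libraries of batch 1 and 0.412 to 238 CPM in those of batch 2, against 0.89 to 11.6 CPM in BCAM HI and 0 to 267 CPM in BCAM LO. Since the differentiated libraries of the 2 batches stood apart in these lists, the comparisons with them are also given by batch; the part of thyroid or parathyroid RNA in any of them was not tested.

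The 3 genes closest to ionocyte identity are shown first by the DNA just upstream of their RefSeq starts, as a description. Whether this DNA bears on their counts was not tested. The windows are the 250 bases before the RefSeq start in GRCm38.p6, written 5′ to 3′ on the gene's strand: chr11:34208090-34208339, minus strand, for Foxi1, chr7:109731733-109731982, minus strand, for Ascl3 and chr6:83742767-83743016, plus strand, for Atp6v1b1. Capitals mark matches, on either strand, to the forkhead core TGTTTAC or its variants TGTTTGC and TGTTTAT, or to TATAAA.
Foxi1: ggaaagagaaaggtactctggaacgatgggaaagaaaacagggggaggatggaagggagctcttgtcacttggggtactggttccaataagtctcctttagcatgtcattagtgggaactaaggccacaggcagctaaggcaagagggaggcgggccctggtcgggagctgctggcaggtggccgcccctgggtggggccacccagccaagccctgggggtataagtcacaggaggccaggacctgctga
Ascl3: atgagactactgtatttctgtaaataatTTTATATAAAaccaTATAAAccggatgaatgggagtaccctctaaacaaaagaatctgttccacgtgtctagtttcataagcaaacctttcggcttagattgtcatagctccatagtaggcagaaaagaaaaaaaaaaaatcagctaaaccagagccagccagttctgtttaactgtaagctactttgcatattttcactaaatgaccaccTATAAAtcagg
Atp6v1b1: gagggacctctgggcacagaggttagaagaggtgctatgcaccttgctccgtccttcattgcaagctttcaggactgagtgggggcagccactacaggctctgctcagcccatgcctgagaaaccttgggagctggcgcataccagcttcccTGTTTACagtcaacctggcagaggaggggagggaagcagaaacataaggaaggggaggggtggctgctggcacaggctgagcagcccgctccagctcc
The Atp6v1b1 window held 1 forkhead match, TGTTTAC from base -98 to base -92 counted from the start, and TGTTTAC occurred in 3.17% of 32851 RefSeq windows of the same length. A match to any of the 3 forkhead words occurred in 11% of them. In the Ascl3 window TATAAA matched 4 times, at -222 to -217 on the opposite strand, overlapping a match at -218 to -213, and again at -208 to -203 and -11 to -6; 12.4% of windows hold that word. None of these words was found in the Foxi1 window. These are matches of letters only, and binding was not measured. The Atp6v1b1 window runs past base 83742990, where the annotation used for the counts starts the gene.

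Most Foxi1 counts came from 5 differentiated libraries and 1 BCAM LO library. The gene (ENSMUSG00000047861) lies on the minus strand at chr11:34204338-34208089 in GRCm38. In DIFFERENTIATED EPCS the estimated counts of replicates 1 to 8 were 16, 12, 11, 0, 6, 0, 0 and 32. In BCAM LO they were 0 in replicates 1, 3, 4, 5 and 8, 1 in replicates 6 and 7, and 12 in replicate 2. BCAM HI had a single count in replicates 4 and 6 and 0 in the other libraries. Differentiated cells thus held 77 counts in all, against 14 in BCAM LO and 2 in BCAM HI, but 3 of their libraries had none, so the groups overlapped.

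Scaled to library totals, the summed Foxi1 signal was 71.1 times as high in differentiated cells as in BCAM HI (95% exact binomial interval 19.0 to 598) and 9.83 times as high as in BCAM LO (5.52 to 18.8). The latter rests on 1 library: without BCAM LO replicate 2 that group held 2 counts and the ratio was 58.3 (15.6 to 490). Such intervals cover counting error only. Across libraries the mean was 4.86 ± 4.91 CPM (SD, n = 8) in differentiated cells, 0.463 ± 0.979 in BCAM LO and 0.0759 ± 0.141 in BCAM HI. An exact two-sided permutation test of mean CPM, with labels exchanged within batches (5040 arrangements), gave p = 0.0238 for BCAM HI and p = 0.0317 for BCAM LO against differentiated cells. After Benjamini-Hochberg (BH) adjustment over the 9 such tests made these were 0.0536 and 0.0571. In an edgeR quasi-likelihood (QL) fit with no filter on low counts, the BH-adjusted p-values over all genes were 1.84e-04 and 0.0168. Which side of 0.05 Foxi1 fell on therefore depended on the test.

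Ascl3 also had most of its counts in differentiated libraries. The gene (ENSMUSG00000035951, chr7:109727465-109731726, minus strand) had counts of 17, 19, 8, 0, 12, 0, 10 and 19 in differentiated replicates 1 to 8, a total of 85. BCAM HI libraries had 0 to 5 counts (median 1.5, total 15) and BCAM LO libraries 0 to 8 (median 0.5, total 20). Of the 8 differentiated libraries 6 exceeded every BCAM HI library, and the other two were at 0. Mean CPM was 5.55 ± 4.27 in differentiated cells, 0.551 ± 0.586 in BCAM HI and 0.616 ± 0.766 in BCAM LO (SD, n = 8 each). Both BCAM groups were lower than differentiated cells by the exact permutation test, with p = 0.00952 in each comparison and a BH-adjusted value of 0.0429. Leaving out any 1 library kept the unadjusted p between 0.00159 and 0.0179. The edgeR QL fit with no filter gave BH-adjusted p-values of 0.00292 and 0.00543. No difference between BCAM HI and BCAM LO was detected at these counts (exact permutation p = 0.862).

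Cftr was low in every library and spread over all 3 groups. The gene (ENSMUSG00000041301, chr6:18170687-18322768, plus strand) shares 129 of its 7765 exon bases with the antisense gene Gm15592, and the SmartSeq2 protocol does not mark strand. Counts in differentiated replicates 1 to 8 were 2, 15, 7, 0, 2, 16, 15 and 13. BCAM LO libraries had 0 to 14 (median 6.5, total 55), with 14, 13, 12 and 11 in replicates 7, 8, 2 and 3. BCAM HI libraries had 0 to 12 (median 2, total 26). Highest among the BCAM HI libraries was replicate 1, and the 3 differentiated libraries of batch 2 were all among the 6 highest of the 24 in CPM.

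Mean Cftr was 4.50 ± 3.62 CPM in differentiated cells, 2.44 ± 2.59 in BCAM LO and 0.873 ± 1.10 in BCAM HI (SD, n = 8 each). The exact permutation test gave p = 0.0206 for BCAM HI against differentiated cells (BH-adjusted 0.0536), p = 0.151 for BCAM LO against differentiated cells and p = 0.176 between the BCAM groups. The edgeR QL fit with no filter gave BH-adjusted p-values of 0.0742, 0.438 and 0.531 for the same comparisons. Cftr passed the filter in batch 2 alone, through BCAM LO and differentiated libraries, as BCAM HI libraries held 0 to 2 counts there. In that batch BCAM HI was called lower than differentiated cells, from 2 against 44 counts, a call that is not independent of the filter. The log2 fold change was -4.74 (SE 1.12, edgeR QL, BH-adjusted p = 0.0048), and 29.6% of all genes were called. There BCAM LO minus differentiated cells was at -0.62 and BCAM HI minus BCAM LO at -4.12 (edgeR QL, BH-adjusted p = 0.695 and 0.0549). By batch, BCAM HI, BCAM LO and differentiated cells held 24, 26 and 26 counts in batch 1 and 2, 29 and 44 in batch 2, so the low total of BCAM HI beside BCAM LO came from batch 2. Scaled to library totals, these groups were at 1.28 ± 1.235, 1.21 ± 1.35 and 3.04 ± 3.74 CPM in batch 1 (SD, n = 5 each). The values for batch 2 were 0.198 ± 0.342, 4.48 ± 3.13 and 6.93 ± 1.90 CPM (SD, n = 3 each). The protein-coding transcript Cftr-201 held 90.9% of Cftr counts in differentiated cells, 70.7% in BCAM LO and 50% in BCAM HI. In BCAM HI that was 13 of 26 estimated counts, and 10.8 were assigned to Cftr-202, of similar length (6391 against 6303 bases). At such counts these shares do not show a difference in transcripts between the groups.

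Foxi1, Ascl3 and Cftr were not low or high in the same libraries throughout. All 3 were at 0 in differentiated replicate 4, while replicates 6 and 7 had no Foxi1 count and their Cftr counts were among the highest. Among BCAM libraries, BCAM LO replicate 2 had the highest counts of Foxi1 and Ascl3 and 12 counts of Cftr. That library also had the highest sum of 8 tuft cell markers, 113 CPM, against 7.29 to 35.2 CPM in the other BCAM LO libraries; the part of such cells in the result was not tested. In RNA from sorted pools, fewer cells of a type and less RNA per cell cannot be told apart.

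**Figure D1:**
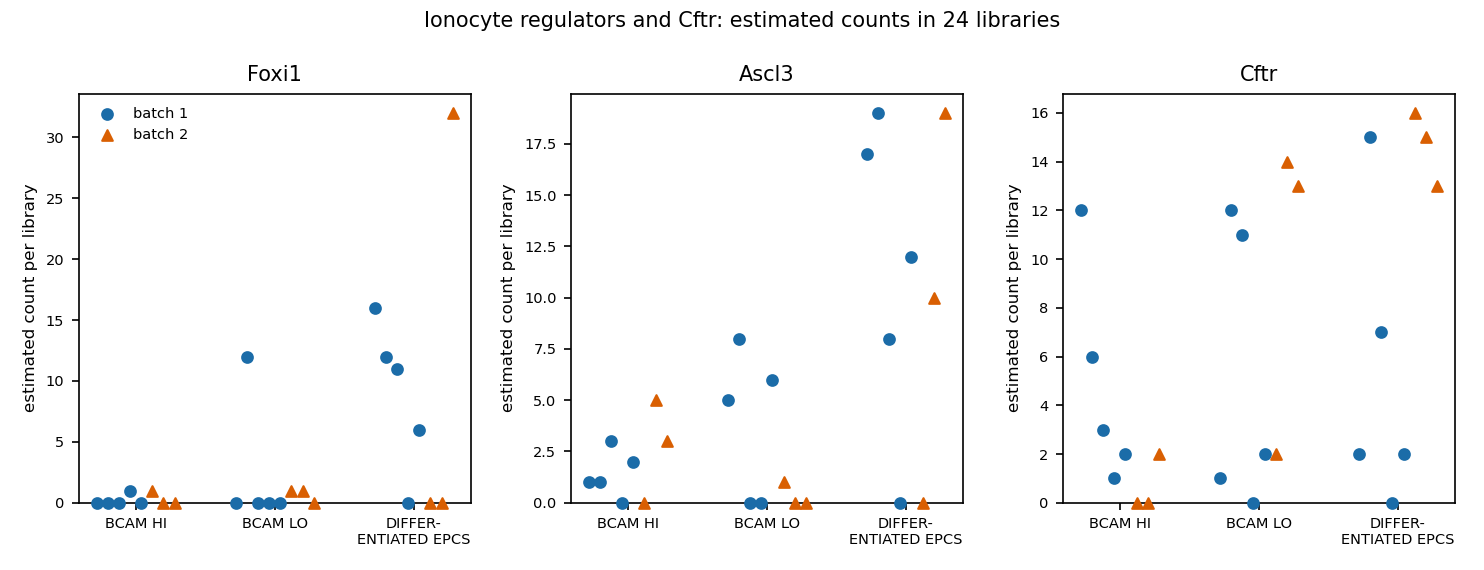
Estimated counts of Foxi1, Ascl3 and Cftr (vertical axis) in each of the 24 libraries, by group, with circles for batch 1 and triangles for batch 2. Foxi1 reached 32 counts in a differentiated library of batch 2 and 12 in BCAM LO replicate 2, while Cftr counts of 11 or more occurred in all 3 groups.

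The other 6 genes passed edgeR's filter on low counts and were tested together with 12211 genes, with batch as a covariate. Against differentiated cells, 4 of the 6 were called lower in BCAM HI at a BH-adjusted p under 0.05 (Atp6v1b1, Scnn1b, Scnn1g and Slc12a2), where 41.3% of all genes tested were called and 22% were called lower. Those 4 were also called lower in BCAM LO, where 33.5% of all genes were called and 17.1% were called lower. These comparisons share the differentiated libraries and are not independent of each other. On the TPM scale, with limma on log2(TPM + 0.1), 2 genes were called in each comparison, Scnn1b and Slc12a2, where 63% and 40.1% of all genes were called (6.4% between the BCAM groups). With edgeR the median log2 fold changes over the 6 genes were -1.46 and -1.50, with medians of 0.02 and 0.02 over all genes tested. Between BCAM HI and BCAM LO, none of the 6 was called by edgeR QL, 1 had an unadjusted p under 0.05 (Slc12a2), and DESeq2's Wald test also called 0; 7.02% of all genes were called, 2.43% higher and 4.59% lower.

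The ENaC subunit genes did not follow one pattern. Scnn1a, the α subunit (ENSMUSG00000030340, chr6:125320659-125344943, plus strand), had the highest mean per transcript length of the 9 genes in each group over both batches, at 90.6 ± 32.0 TPM (the deposited values per transcript length) in BCAM HI, 63.8 ± 25.2 in BCAM LO and 62.4 ± 25.7 in differentiated cells (SD, n = 8). Its lowest, median and highest CPM were 90.8, 127 and 160 in BCAM HI, 93.9, 120 and 193 in BCAM LO and 72.3, 156 and 201 in differentiated cells. The groups overlapped fully. Fitted log2 fold changes were -0.21 (SE 0.20) for BCAM HI and -0.14 (SE 0.20) for BCAM LO against differentiated cells, with edgeR QL BH-adjusted p-values of 0.429 and 0.627, and they turned positive on the TPM scale. The batches differed in sign: in batch 1 alone the changes were -0.66 and -0.58, with BH-adjusted p-values of 2.17e-04 and 0.00106 by edgeR QL, and in batch 2 alone they were 0.68 and 0.73, with 0.0652 and 0.0712.

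Scnn1b, the β subunit, was high in every differentiated library and had few counts in the BCAM groups. The gene (ENSMUSG00000030873) lies at chr7:121865038-121918514, plus strand. BCAM HI libraries had 2 to 21 counts (median 9.5), BCAM LO libraries 0 to 13 (median 4.5) and differentiated libraries 131 to 496 (median 187.5). In CPM the lowest differentiated library was at 69.1 and the highest BCAM library at 6.59, so there was no overlap. The log2 fold change was -5.23 (SE 0.34, edgeR QL, BH-adjusted p = 4.56e-12) in BCAM HI and -5.95 (SE 0.36, BH-adjusted p = 3.29e-12) in BCAM LO against differentiated cells, the largest of the 6 genes in both comparisons. Batch 1 alone gave -5.21 and -6.95, and batch 2 alone -5.20 and -5.00.

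Scnn1b differed between the batches within BCAM LO. The 5 libraries of batch 1 had 0 to 5 counts (0.735 ± 0.509 CPM) and the 3 of batch 2 had 10 to 13 (5.19 ± 0.787 CPM, SD). Every batch 2 library was above every batch 1 library, a log2 difference of 2.78 (SE 0.59, edgeR QL, BH-adjusted p = 0.0023). Sums of 10 ciliated cell markers were 242 to 389 CPM in the same batch 2 libraries and 43.0 to 69.8 CPM in batch 1, thyroid sums 38.3 to 289 and 25.7 to 47.3 CPM, and secretory sums 78540 to 89020 and 42810 to 65780 CPM; their part in the difference was not tested. BCAM HI and BCAM LO differed by 1.75 in batch 1 alone (SE 0.51, edgeR QL, BH-adjusted p = 0.045), from 47 against 15 counts, but by -0.20 in batch 2 alone and 0.73 over both (BH-adjusted p = 0.91 and 0.354). The difference between batches was itself not called for this comparison, for Scnn1b or any of the 6 genes, with 1.06% of all genes called.

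Scnn1g, the γ subunit, had a smaller difference, called in batch 1 and not in batch 2. The gene (ENSMUSG00000000216) lies at chr7:121734479-121768475, plus strand, and ends 96.6 kb before Scnn1b starts. Lowest, median and highest CPM were 10.97, 15.4 and 24.2 in BCAM HI, 3.20, 14.03 and 23.2 in BCAM LO and 8.64, 37.7 and 70.3 in differentiated cells. The 5 differentiated libraries of batch 1 were above all BCAM libraries and the 3 of batch 2 lay within the BCAM range. Over both batches the log2 fold change was -1.04 (SE 0.37, edgeR QL, BH-adjusted p = 0.0252) in BCAM HI and -1.27 (SE 0.38, BH-adjusted p = 0.011) in BCAM LO. The former was no longer called without BCAM HI replicate 3 or without differentiated replicate 1 or 3 (highest adjusted p 0.0621), nor with a replicate block (adjusted p 0.055) or with no filter on low counts (-0.94, adjusted p 0.102). In batch 1 alone the changes were -1.59 and -2.07, both called, and in batch 2 alone 0.34 and 0.44, with BH-adjusted p-values of 0.615 and 0.574 by edgeR QL.

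On the TPM scale Scnn1b and Scnn1g were at 37.4 ± 18.5 and 7.87 ± 4.44 in differentiated cells but at 1.82 ± 1.36 and 6.44 ± 1.95 in BCAM HI (SD, n = 8). The upstream windows of these 2 genes, which have 1 annotated gene between them, are shown as a description. Whether they bear on these levels was not tested. The windows cover chr7:121864788-121865037 and chr7:121734229-121734478, plus strand, 250 bases before the RefSeq start in GRCm38.p6, with no match to the motifs above.
Scnn1b: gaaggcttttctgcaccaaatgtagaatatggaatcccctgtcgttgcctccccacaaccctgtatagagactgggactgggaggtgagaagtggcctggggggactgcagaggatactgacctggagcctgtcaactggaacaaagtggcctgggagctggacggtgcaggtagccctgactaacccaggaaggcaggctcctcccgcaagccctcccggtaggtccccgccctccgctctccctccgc
Scnn1g: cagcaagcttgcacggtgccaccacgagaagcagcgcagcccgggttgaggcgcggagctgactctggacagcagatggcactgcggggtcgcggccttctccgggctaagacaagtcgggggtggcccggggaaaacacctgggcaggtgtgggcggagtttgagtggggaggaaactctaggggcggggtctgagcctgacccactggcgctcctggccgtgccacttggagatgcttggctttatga
The Scnn1b window had 7 CG dinucleotides and 60.8% G and C bases, and the Scnn1g window 16 and 65.2%, against medians of 6 and 52.4% over all windows.

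**Figure D2:**
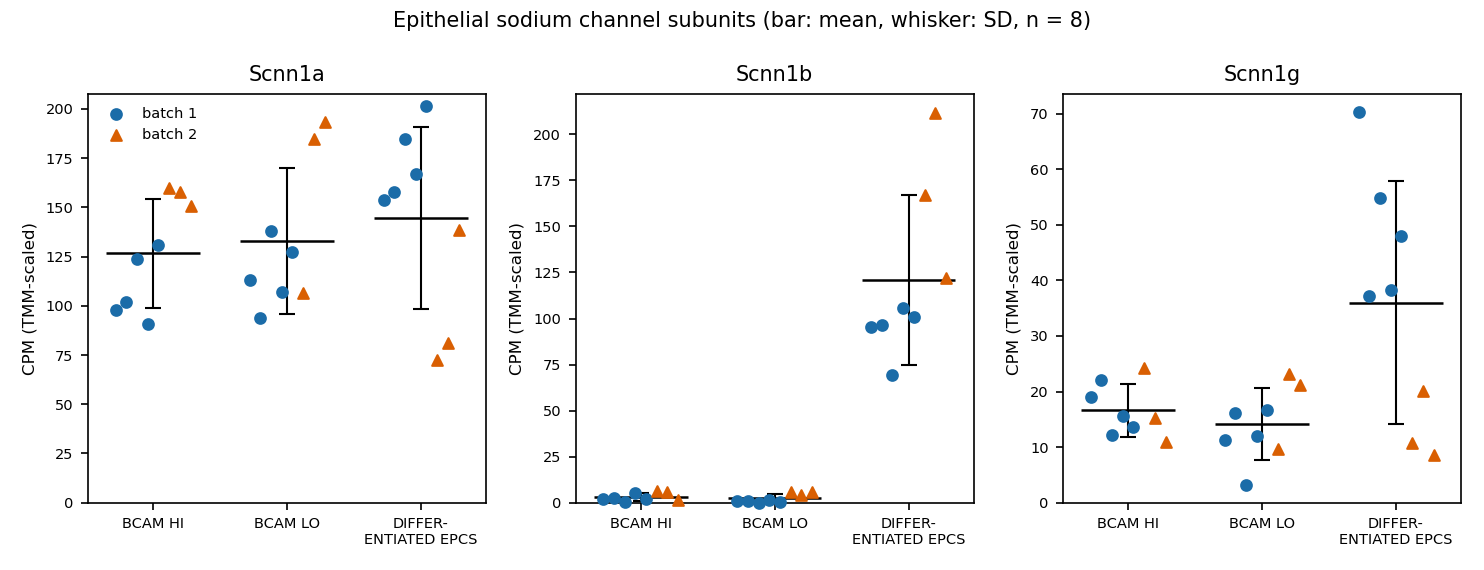
CPM (vertical axis, TMM-scaled) of Scnn1a, Scnn1b and Scnn1g in each library by group, with circles for batch 1, triangles for batch 2, bars for the mean and whiskers for the SD over 8 libraries. Scnn1b separates the differentiated libraries (69.1 to 212 CPM) from all BCAM libraries, Scnn1g only those of batch 1, and Scnn1a none.

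Slc12a2, the chloride-loading cotransporter gene (ENSMUSG00000024597, chr18:57878678-57946821, plus strand), was lower in both BCAM groups in both batches. Lowest, median and highest CPM were 9.12, 15.5 and 27.3 in BCAM HI, 16.6, 23.9 and 30.9 in BCAM LO and 64.8, 70.4 and 112 in differentiated cells. No BCAM library reached the lowest differentiated library. The log2 fold change was -2.20 (SE 0.19, edgeR QL, BH-adjusted p = 1.77e-10) in BCAM HI and -1.73 (SE 0.19, BH-adjusted p = 1.96e-08) in BCAM LO. Batch 1 alone gave -2.66 and -1.85, and batch 2 alone -1.49 and -1.50, all called. For BCAM HI the difference between batches was called, at 1.18 (SE 0.31, edgeR QL, BH-adjusted p = 0.0135), though not without BCAM HI replicate 6 (BH-adjusted p = 0.0514).

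Between the BCAM groups Slc12a2 was at -0.47 on the log2 scale in BCAM HI minus BCAM LO (SE 0.19, edgeR QL, BH-adjusted p = 0.138). In batch 1 alone, BCAM HI libraries ran from 9.12 to 15.5 CPM and BCAM LO libraries from 16.8 to 27.0 CPM, without overlap, and the change of -0.81 was called (SE 0.20, edgeR QL, BH-adjusted p = 0.0116; 5.69% of all genes were called in that batch). In batch 2 alone the change was 0.02 (edgeR QL, BH-adjusted p = 0.988; none of the 6 genes and 4.38% of all genes were called). Within BCAM HI, Slc12a2 was higher in batch 2 by 0.88 (SE 0.23, edgeR QL, BH-adjusted p = 0.0124; not called without BCAM HI replicate 6 or 7).

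Ano1, the calcium-activated chloride channel gene (ENSMUSG00000031075, chr7:144588549-144751974, minus strand), differed between batches within each BCAM group. In batch 1, BCAM HI had 72.3 ± 22.5 CPM, BCAM LO 73.2 ± 19.1 and differentiated cells 134 ± 33.8 (SD, n = 5 each). In batch 2 the same groups had 272 ± 29.3, 316 ± 31.2 and 84.6 ± 48.9 CPM (SD, n = 3 each). All 6 BCAM libraries of batch 2, at 248 to 350 CPM, were above all other 18 libraries. Batch 2 was higher than batch 1 by 1.91 on the log2 scale in BCAM HI (SE 0.30, edgeR QL, BH-adjusted p = 5.31e-04) and by 2.11 in BCAM LO (SE 0.30, BH-adjusted p = 7.9e-05), while in differentiated cells the difference was not called.

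The comparison of Ano1 with differentiated cells accordingly reversed between batches. In batch 1 alone it was -0.88 in BCAM HI and -0.87 in BCAM LO (edgeR QL, BH-adjusted p = 0.0115 and 0.0134). In batch 2 alone it was 1.68 and 1.90 (BH-adjusted p = 0.00264 and 0.00228). The difference between batches was 2.56 (SE 0.45, edgeR QL, BH-adjusted p = 8.0e-04) and 2.76 (SE 0.45, BH-adjusted p = 3.17e-04). Over both batches the values were -0.13 and -0.01, not called, and they turned positive on the TPM scale. The transcript Ano1-203 held 91.4%, 90.7% and 92.1% of the counts in BCAM HI, BCAM LO and differentiated cells.

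Atp6v1b1, the V-ATPase B1 subunit gene (ENSMUSG00000006269, chr6:83742990-83758855, plus strand), was counted far more often than the ionocyte regulators. Lowest, median and highest CPM were 7.83, 17.0 and 50.1 in BCAM HI, 8.42, 16.5 and 43.9 in BCAM LO and 10.2, 77.9 and 131 in differentiated cells. The differentiated libraries of batch 1 (70.5 to 131 CPM) and replicate 8 of batch 2 (70.4 CPM) were above all BCAM libraries, while replicates 6 and 7 had only 25 and 24 counts, 14.1 and 10.2 CPM. The log2 fold change was -1.89 (SE 0.50, edgeR QL, BH-adjusted p = 0.00422) in BCAM HI and -1.998 (SE 0.50, BH-adjusted p = 0.00353) in BCAM LO. In batch 1 alone it was -2.87 and -2.81, both called, and in batch 2 alone 0.29 and 0.05 (BH-adjusted p = 0.813 and 0.978). These 2 differentiated libraries, replicates 6 and 7, had no Foxi1 count, and replicate 7 had 10 counts of Ascl3. They had the highest thyroid sums, 84580 and 118800 CPM, and the lowest secretory sums of the group, 22040 and 14640 CPM. Replicate 4, also with no Foxi1 count, had 127 counts of Atp6v1b1. The part of any of these in the Atp6v1b1 values was not tested.

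Atp6v1b1 was higher in batch 2 within BCAM HI, at 38.8 ± 11.7 CPM (SD, n = 3) against 13.4 ± 4.22 (n = 5), by 1.54 on the log2 scale (SE 0.46, edgeR QL, BH-adjusted p = 0.042). That call was lost when any 1 of 14 libraries was left out (highest adjusted p 0.136). Within differentiated cells it was lower in batch 2, with a log2 difference of -1.61 (SE 0.48, edgeR QL, BH-adjusted p = 0.0202), a call lost without replicate 6 or 7 (BH-adjusted p up to 0.108).

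**Figure D3:**
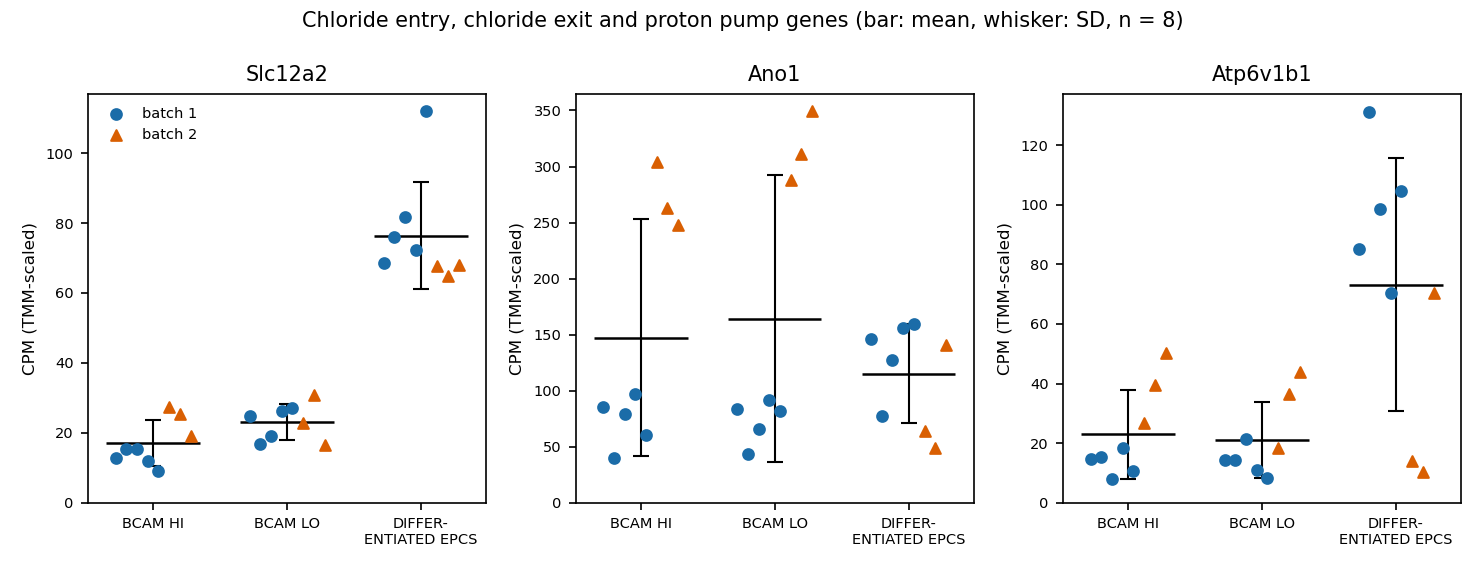
CPM (vertical axis, TMM-scaled) of Slc12a2, Ano1 and Atp6v1b1 in each library by group, with circles for batch 1, triangles for batch 2, bars for the mean and whiskers for the SD over 8 libraries. Slc12a2 separates the differentiated libraries, Ano1 the 6 BCAM libraries of batch 2 (248 to 350 CPM), and 2 differentiated libraries of batch 2 lie low for Atp6v1b1.

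Across the 6 genes, the comparison of BCAM HI with differentiated cells differed between batches for 5, all but Scnn1b, where 8.69% of all genes did (for 3 without BCAM HI replicate 6). For Scnn1g this call was also lost without differentiated replicate 6 or 8. The comparison of BCAM LO with differentiated cells differed for 4 (Atp6v1b1, Scnn1a, Scnn1g and Ano1), where 11.4% of all genes did. In batch 1 alone all 6 genes were called lower in BCAM HI and in BCAM LO than in differentiated cells, with 33.7% and 33.1% of all genes called. In batch 2 alone 2 of the 6 were called lower (Scnn1b and Slc12a2) and Ano1 was called higher, in BCAM HI and likewise in BCAM LO, with 29.6% and 17.9% of all genes called. With the differentiated libraries of batch 2 left out, 6 of 6 genes were called lower in each comparison, where 36.9% and 30.3% of all genes were called.

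Within the differentiated cells, 4 of the 6 genes differed between batches, where 20.1% of all genes did (2 without replicate 6 or 7). Scnn1g was at 49.7 ± 13.6 CPM in batch 1 (SD, n = 5) and 13.1 ± 6.07 in batch 2 (n = 3), a log2 difference of -1.91 (SE 0.41, edgeR QL, BH-adjusted p = 9.59e-04). Scnn1a fell by 0.83 on the log2 scale (SE 0.20, edgeR QL, BH-adjusted p = 0.00237). Scnn1b went the other way, from 93.6 ± 14.2 to 167 ± 44.7 CPM, a log2 difference of 0.84 (SE 0.30, edgeR QL, BH-adjusted p = 0.0464) whose call was lost when any 1 of 17 libraries was left out (highest adjusted p 0.257). Secretory marker sums were lower and thyroid sums higher in batch 2 of this group without overlap, as given above; their part in these differences was not tested. Called differences within BCAM HI were 3 of 6 (8.04% of all genes; 1 without its replicate 6 or 7) and within BCAM LO 2 of 6 (11.1%; 4 without differentiated replicate 8).

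**Figure D4:**
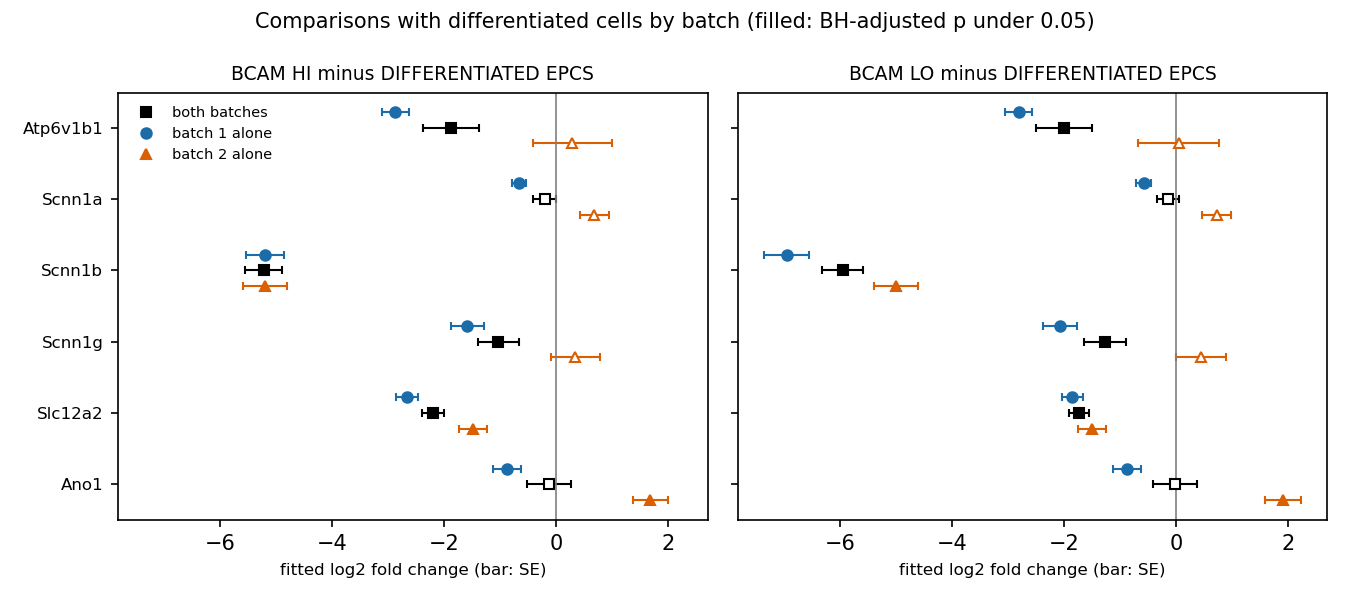
Fitted log2 fold changes (horizontal axis, bars for the SE) of the 6 tested genes in BCAM HI and BCAM LO against differentiated cells, over both batches (squares), in batch 1 alone (circles) and in batch 2 alone (triangles), filled where the BH-adjusted p was under 0.05. Scnn1b and Slc12a2 stayed below 0 in each batch, while Ano1 went from -0.88 to 1.68 and Atp6v1b1 from -2.87 to 0.29 in BCAM HI.

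Genes with the most similar profile were listed by Pearson's r of log2 CPM over the 24 libraries, which share groups and batches, among 11564 genes. Nearest to Scnn1b were Derl3 (r = 0.965), Dio1 (0.964) and Iyd (0.961), and nearest to Slc12a2 were Cdh16 (0.928), Tmem37 (0.926) and Pax8 (0.923). Dio1, Iyd, Cdh16 and Pax8 belong to the thyroid list given above. The part of thyroid RNA in the Scnn1b and Slc12a2 differences was not tested. Nearest to Ano1 were Adam9 (0.958), Sec14l1 (0.868) and Asph (0.857), to Atp6v1b1 Cbr1 (0.905), Dstn (0.894) and Qsox1 (0.882), to Scnn1a Fam83e (0.817), Por (0.802) and Sidt1 (0.784), and to Scnn1g Rbbp9 (0.803), Praf2 (0.796) and Idh2 (0.777).

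Per transcript length, the order of the 9 genes in differentiated cells was Scnn1a, Atp6v1b1 (41.5 ± 22.7 TPM), Scnn1b, Ano1 (25.1 ± 9.93), Slc12a2 (8.07 ± 1.34), Scnn1g, Ascl3 (6.88 ± 5.13), Foxi1 (1.48 ± 1.73) and Cftr (0.545 ± 0.426; SD, n = 8). In this order only the step from Ano1 to Slc12a2 was larger than the SDs of the neighbours together. In BCAM HI the order was Scnn1a, Ano1 (55.6 ± 45.5), Atp6v1b1 (22.2 ± 16.2), Scnn1g, Slc12a2 (3.27 ± 1.61), Scnn1b, Ascl3 (1.202 ± 1.37), Cftr (0.206 ± 0.229) and Foxi1 (0.0389 ± 0.0724). BCAM LO had the same order, with Ano1 at 54.5 ± 48.8, Atp6v1b1 at 18.0 ± 11.9, Scnn1g at 4.94 ± 2.53, Slc12a2 at 3.65 ± 0.846, Scnn1b at 1.42 ± 1.59 and Cftr at 0.572 ± 0.599 TPM. No step between neighbours in either BCAM group exceeded their SDs together. The order was not the same in each batch: in batch 2, Ano1 was at 108 ± 36.0 TPM and Scnn1a at 70.9 ± 41.6 in BCAM LO, and Scnn1b was at 55.7 ± 19.7 and Scnn1a at 43.1 ± 32.9 in differentiated cells (SD, n = 3).

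Among 16 other ionocyte genes, 8 passed the filter on low counts. Against differentiated cells, 6 were called lower and 1 higher in BCAM HI, and 5 lower and 1 higher in BCAM LO (medians -3.13 and -2.58, with 0.02 over all genes tested), where 22% and 17.1% of all genes were called lower. Kcnj16 and Atp6v0d2 passed the filter through the differentiated libraries. Their median counts were 1 and 0 in BCAM HI, 2 and 0 in BCAM LO and 79 and 25 in differentiated cells. The numbers called lower are therefore not independent of the filter. With batch 1 alone 9 were tested and 6 and 4 were called lower, and in batch 2 alone 5 and 5 of 9. The shares of all genes called were 33.7% and 33.1% in batch 1 alone and 29.6% and 17.9% in batch 2 alone. Kcnj16, a potassium channel subunit gene, had 16 counts in BCAM HI, 32 in BCAM LO and 1050 in differentiated cells, with log2 fold changes of -6.81 (SE 0.46) and -5.67 (SE 0.41; edgeR QL, BH-adjusted p = 3.59e-12 and 3.11e-11). Asgr1, a lectin receptor subunit gene, was at 3.79 ± 2.09, 4.05 ± 2.82 and 122 ± 51.6 CPM in the 3 groups (SD, n = 8). Atp6v0d2, a V-ATPase subunit gene, had 5, 46 and 267 counts, of which 37 of the 46 in BCAM LO came from 1 library. Moxd1 had log2 fold changes of -3.83 in BCAM HI and -3.90 in BCAM LO. These genes were present in each differentiated library, including replicates 4, 6 and 7 where Foxi1 was not counted: the lowest Kcnj16 count was 42 and the lowest Asgr1 count 131. Thyroid sums were higher in the same libraries than in any BCAM library, and their part in these values was not tested.

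Atp6v1c2, another V-ATPase subunit gene of that list, was the gene called higher, at 150 ± 41.2 CPM in BCAM HI, 111 ± 40.1 in BCAM LO and 58.9 ± 21.2 in differentiated cells (SD, n = 8). Its log2 fold change was 1.28 (SE 0.24) in BCAM HI and 0.83 (SE 0.24) in BCAM LO (edgeR QL, BH-adjusted p = 1.3e-04 and 0.00978). Hepacam2 did not pass the filter, with 16 counts in BCAM HI and 100 in differentiated cells, nor did Bsnd, with 0 and 10. Between the BCAM groups 0 of the 8 were called by edgeR QL, where 7.02% of all genes were called.

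Of 15 other V-ATPase subunits, 12 were called lower in BCAM HI and 11 in BCAM LO than in differentiated cells and none higher on the TMM scale, at medians of -0.60 and -0.54. Over all genes 22% and 17.1% were called lower. This direction depends on the scaling, since on the TPM scale 0 and 1 were called lower and 3 and 1 higher, where 63% and 40.1% of all genes were called. That scale moved the median of all genes to 0.75 and 0.48, and relative to it all 15 genes lay below in both comparisons. By batch, 12 were called lower in each comparison in batch 1 alone, and in batch 2 alone 10 in BCAM HI and 5 in BCAM LO, with none higher. Of all genes, 33.7% and 33.1% were called in batch 1 alone and 29.6% and 17.9% in batch 2 alone. Over both batches Atp6v0d1 was at -1.04 (SE 0.11), Atp6v1b2 at -1.004 (SE 0.16) and Atp6v1a at -0.94 (SE 0.14) in BCAM HI. In BCAM LO the genes with the largest changes were Atp6v1c1 (-0.99), Atp6v1b2 (-0.75) and Atp6v1a (-0.74). Between the BCAM groups Atp6v0d1 was the single gene called, with a log2 change of -0.41 (edgeR QL, BH-adjusted p = 0.0212), where 4.59% of all genes were called lower. It was not called in either batch alone (-0.46 and -0.34) or on the TPM scale (-0.19), where Atp6ap1 was called higher instead.

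Among 23 other chloride and bicarbonate transport genes, 22 were tested. In BCAM HI 5 were called higher and 10 lower than in differentiated cells, against shares of 19.4% and 22% over all genes. BCAM LO had 5 and 5, near the shares over all genes of 16.3% and 17.1%. The medians were -0.15 and -0.03. The split differed by batch: in BCAM HI 1 was called higher and 7 lower in batch 1 alone and 5 and 3 in batch 2 alone, and in BCAM LO 2 and 6, then 6 and 1. Both batches alone called genes widely, at 33.7% and 33.1% of all genes in batch 1 and 29.6% and 17.9% in batch 2. On the TPM scale the split was 11 higher and 4 lower, and 11 and 2. That scale called 63% and 40.1% of all genes. The list medians were 0.62 and 0.49 on it, beside 0.75 and 0.48 over all genes tested. Clca2, a member of the calcium-activated chloride channel regulator family, had 1281 counts in BCAM HI, 802 in BCAM LO and 14 in differentiated cells, with log2 fold changes of 5.81 (SE 0.43) and 5.42 (SE 0.44; edgeR QL, BH-adjusted p = 1.75e-11 and 1.56e-10). Every BCAM library was above every differentiated library for it. Car2, a carbonic anhydrase gene, showed the opposite, with 16, 22 and 586 counts and fold changes of -5.66 (SE 0.60) and -5.05 (SE 0.57). Clca1 was called lower in BCAM HI at -3.92 and was not called in BCAM LO. Its libraries spread widely, from 0 to 912 CPM in BCAM HI (median 8.59) and from 1.785 to 4213 in BCAM LO (median 29.1). Differentiated libraries ran from 61.1 to 3130 CPM (median 201), so the groups overlapped. Mean Clca1 was 316 ± 432 CPM in BCAM HI, 1433 ± 1967 in BCAM LO and 683 ± 1044 in differentiated cells (SD, n = 8). The means of BCAM HI and differentiated cells thus lay closer together than the fitted change. The apical anion transporter gene Slc26a9 was at -2.64 (SE 0.48) in BCAM LO, and Slc4a4, a sodium bicarbonate cotransporter gene, at -1.51 (SE 0.25). Between the BCAM groups 3 were called, all lower in BCAM HI (7.02% of all genes were called): Slc4a4 (-1.21), Best1 (-1.14) and Slc12a7 (-0.53). None of these calls was made on the TPM scale or in batch 2 alone, and only that of Slc12a7 in batch 1 alone.

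Among 15 sodium and potassium transport genes, 11 were tested, of which 8 were called lower in each BCAM group than in differentiated cells, 2 higher in BCAM HI and 1 higher in BCAM LO (medians -2.69 and -1.66). The shares over all genes were 22% and 17.1% called lower and 19.4% and 16.3% called higher. Of 12 tested in batch 1 alone 7 and 8 were called lower, and in batch 2 alone 6 and 5 of 11. Those batches alone called 33.7% and 33.1%, then 29.6% and 17.9% of all genes. Potassium channel genes led those called lower. Kcnk5 was at -4.28 (SE 0.35) in BCAM HI and -2.20 in BCAM LO, Kcnn4 at -3.67 and -2.55, Kcne3 at -3.60 and -1.91 and Kcnj15 at -2.97 and -2.67. In batch 2 alone Kcne3 was not called in either (-1.16 and 0.38). Between the BCAM groups 3 were called lower in BCAM HI: Kcnk5 (-2.08, SE 0.34, edgeR QL, BH-adjusted p = 3.05e-04), Atp1b1 (-0.64), the β1 subunit of the sodium pump, and Kcnk1 (-0.55). Over all genes 4.59% were called lower there, and 6.4% were called in either direction on the TPM scale. On the TPM scale Kcnk5 was called lower and Fxyd4 higher, and the other two were not called; Kcnk5 was also called in each batch alone.

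Several regulators of ENaC and of the cotransporters differed between the BCAM groups. Of 15 listed, 14 were tested and 5 were called lower in BCAM HI than in BCAM LO, none higher, where 4.59% of all genes were called lower: Tmprss4 (-2.06, SE 0.38), Stk39 (-1.52, SE 0.39), Spint2 (-1.10, SE 0.17), Spint1 (-1.08, SE 0.16) and St14 (-0.35, SE 0.09; edgeR QL, BH-adjusted p from 1.11e-04 to 0.0144), with 3 called on the TPM scale (Tmprss4, Spint1 and Spint2), 3 in batch 1 alone and 2 in batch 2 alone. Tmprss4 and St14 encode membrane serine proteases, Spint1 and Spint2 protease inhibitors, and Stk39 the kinase SPAK, which activates NKCC1. Against differentiated cells 7 were called lower and 1 higher in BCAM HI, and 4 lower and 1 higher in BCAM LO. Over all genes 22% and 17.1% were called lower and 19.4% and 16.3% higher. On the TPM scale the splits were 4 lower and 5 higher, and 1 lower and 3 higher, where 63% and 40.1% of all genes were called. The list medians were 0.09 and 0.47 on that scale, beside 0.75 and 0.48 over all genes tested. By edgeR QL in batch 1 alone the splits were 7 lower and 2 higher, and 4 lower and 2 higher (33.7% and 33.1% of all genes were called). In batch 2 alone they were 5 lower and 2 higher, and 1 lower and 2 higher (29.6% and 17.9%). Prss8, the channel-activating protease prostasin, was at -1.70 (SE 0.14) and -1.57 (SE 0.14). Sgk1, a kinase that increases ENaC at the cell surface, was called higher, at 642 ± 98.3 CPM in BCAM HI, 549 ± 84.0 in BCAM LO and 300 ± 177 in differentiated cells (SD, n = 8), by 1.27 (SE 0.27) and 1.03 (SE 0.27; edgeR QL, BH-adjusted p = 6.13e-04 and 0.00517).

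Secretory marker sums were 35560 to 47450 CPM in BCAM HI and 42810 to 89020 CPM in BCAM LO, and sums of 9 submucosal gland markers 46.2 to 329 and 1950 to 11980 CPM. Their part in the differences between the BCAM groups was not tested, nor that of the thyroid and secretory genes in the comparisons of these lists with differentiated cells. These lists were chosen with earlier results of the same libraries known and are not independent evidence of a direction.

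**Figure D5:**
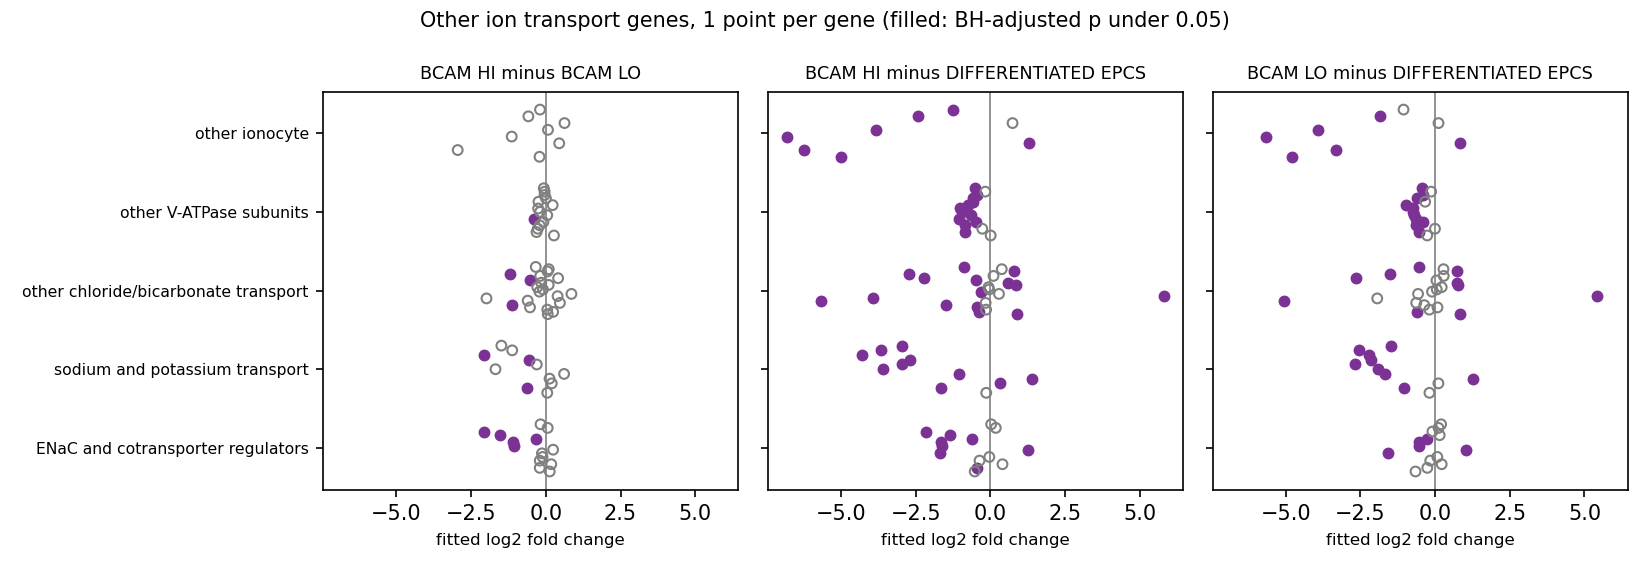
Fitted log2 fold changes (horizontal axis) of the tested genes of the 5 ion transport lists (rows, 1 point per gene) in the 3 comparisons, filled where the BH-adjusted p was under 0.05. Between the BCAM groups all filled points lie below 0, and against differentiated cells Clca2 lies farthest to the right, at 5.81 and 5.42.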

How the data were processed

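Bulk RNA was sequenced from 24 pools of 1000 sorted cells by the SmartSeq2 protocol with read pairs of 38 bases, per the labels' protocols. The submitters' processing notes name kallisto (version given as 46.1), Picard and the build GRCm39. The deposited tables give, per the file headers, an estimated count and a TPM value for each of 117497 transcripts; the authors' estimated counts are not normalized, and their deposited TPM values are relative to transcript length and to an equal sum per library. Transcripts were matched to GENCODE M21 (GRCm38), whose coordinates are printed: 116374 matched and 1123, holding 0.317% to 0.595% of counts, did not and were left out. Estimated counts were summed per gene and rounded. They divide reads among transcripts that share sequence. No 2 libraries were identical.

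The main test was edgeR 4.0.16's robust quasi-likelihood F-test (R 4.3.3) with TMM factors and edgeR's default low-count filter, in 1 fit over all libraries with batch as covariate and BH adjustment over 12211 genes. It was tested on simulated data. SEs were taken as the size of the change over the root of its F statistic. Differences between batches came from a fit with 1 mean per group and batch. Over all libraries Cftr, Foxi1 and Ascl3 failed the filter, though Cftr passed it in batch 2 alone. A gene could pass the filter through the differentiated libraries alone, so numbers of genes called lower than differentiated cells are not independent of it. The permutation tests of these 3 genes were added after their counts were seen. TPM were tested with limma 3.58.1 on log2(TPM + 0.1), and DESeq2 1.42.0 was an alternative. Promoter sequences are RefSeq's; 7 of the 9 genes matched. From the other lists, up to 3 called genes with the largest changes and at least 10 CPM in 1 group were named per comparison, and up to 5 between the BCAM groups; Atp6v1c2, Hepacam2, Bsnd, Slc26a9, Atp6ap1 and Fxyd4 lie outside that rule and were named after their values were seen. The genes and lists were chosen with earlier results of these data known.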

Additional observations from a re-analysis of the deposited data

Results flagged for a closer look

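Of 27 sets of 8 libraries (9 genes in 3 groups), 2 had 1 library standing far from the others by Dixon's criterion, where chance gives about 1 in 20. Foxi1 was at 2.84 CPM (12 counts) in BCAM LO replicate 2, and the next highest BCAM LO library was at 0.441 CPM. Slc12a2 was at 112 CPM (205 counts) in differentiated replicate 5, with the next highest differentiated library at 81.8 CPM.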

How the results depend on the processing

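Between BCAM HI and BCAM LO the count of called genes was 0 in each setting but batch 1 alone, which called 2 (Scnn1b and Slc12a2). Against differentiated cells it was 4 in each comparison in the main fit and ranged from 2 to 6 over 10 alternative settings. It was 2 and 2 with limma on log2(TPM + 0.1) and again on log2(TPM + 1), and 6 and 6 in batch 1 alone. With no low-count filter Foxi1 and Ascl3 were also called in both comparisons, and Scnn1g was not called in BCAM HI. Same-numbered libraries deviated together weakly (correlations 0.032 to 0.176, over 0.1 in 7 of 24 pairs), and 23 of 24 libraries correlated best with their own number among those of the other groups in their batch; no label says what a number shares, so the numbers were not taken as pairs. With a replicate block, 3 genes rather than 4 were called in BCAM HI minus differentiated cells, Scnn1g being at -1.04 (BH-adjusted p = 0.055 by edgeR QL), and in BCAM LO 4 were. With no low-count filter 1 gene was called for the difference between batches of BCAM HI minus BCAM LO, and Ano1 in BCAM LO minus differentiated cells was 0.046.

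Some values changed sign. For BCAM HI minus BCAM LO these were Atp6v1b1 in batch 1 alone (-0.061), and Scnn1b (-0.20), Scnn1g (-0.11) and Slc12a2 (0.016) in batch 2 alone. Against differentiated cells in batch 2 alone, BCAM HI gave 0.29 for Atp6v1b1, 0.68 for Scnn1a, 0.34 for Scnn1g and 1.68 for Ano1, and BCAM LO gave 0.05, 0.73, 0.44 and 1.90. On log2(TPM + 0.1), Scnn1a was 0.54, 0.62 and 0.081 and Ano1 0.065, 0.80 and 0.73 for BCAM HI minus BCAM LO, BCAM HI minus differentiated and BCAM LO minus differentiated. On log2(TPM + 1), Scnn1a was 0.53, 0.61 and 0.078 and Ano1 0.063, 0.78 and 0.72. Relative to the median of all genes on the former scale, Scnn1a was 0.28, -0.13 and -0.40 and Ano1 -0.20, 0.05 and 0.25. The cause of these changes was not tested.

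Leaving out 1 library at a time, the called genes stayed at 0 between the BCAM groups and ranged from 3 to 5 in BCAM HI and stayed at 4 in BCAM LO against differentiated cells. Counts for the difference between batches ranged from 3 to 5 for BCAM HI (3 without BCAM HI replicate 6) and from 4 to 5 for BCAM LO against differentiated cells. Counts for batch 2 minus batch 1 ranged from 1 to 4 in BCAM HI (1 without its replicate 6 or 7), from 2 to 4 in BCAM LO (4 without differentiated replicate 8) and from 2 to 5 in differentiated cells (2 without its replicate 6 or 7). For BCAM HI minus BCAM LO, Atp6v1b1 ranged from -0.11 to 0.30 and Scnn1a from -0.13 to 0.021. Ano1 ranged from -0.36 to 0.01 in BCAM HI and from -0.25 to 0.13 in BCAM LO minus differentiated cells. Depth limits Foxi1, Ascl3 and Cftr, where a library at 0 allows up to 3 counts.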
